A study of Homo sapiens with 4 samples.

Results

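MAP3K7 and 9 further genes of the kinase route to NF-κB were followed through splice-junction reads of chromatin-bound RNA from K562 cells carrying SF3B1 K700E and from wild-type K562 cells. The 10 genes were taken by name: the kinase MAP3K7, its binding partners TAB1, TAB2 and TAB3, the IκB kinase genes CHUK, IKBKB and IKBKG, the NF-κB subunits NFKB1 and RELA, and the ubiquitin ligase TRAF6. They are 10 of the 10827 genes whose spliced reads were deep enough to test. The SF3B1 K700E genotype has 2 libraries and is compared with 2 wild-type libraries. Nothing in the labels ties the replicates to independent cultures, and p-values therefore cover only the variation seen among these 4 libraries, part of which could be technical. Both genotypes share one treatment text in the labels, in which doxycycline at 1 µg/ml turned on the altered allele for 4 days. It is not stated separately if wild-type cells were given the drug or held such an allele. Cells were fractionated in buffers holding 25 µM α-amanitin, an inhibitor of RNA polymerase II. Polyadenylated and ribosomal RNA were then removed, so that mostly unfinished transcripts on chromatin remained.

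SF3B1 belongs to the U2 snRNP, the particle that binds the branch point and so sets which 3′ splice site (acceptor) is joined, and K700E is its recurrent substitution in myeloid neoplasms. MAP3K7 encodes TAK1, a kinase that is switched on by ubiquitin chains built by TRAF6 and recognised by TAB2 or TAB3. TAK1 phosphorylates the IκB kinase complex, made of the catalytic subunits IKKα (CHUK) and IKKβ (IKBKB) and the scaffold NEMO (IKBKG). That complex marks the inhibitor IκB for destruction and frees NF-κB dimers such as p50 (from NFKB1) with RelA (RELA) to enter the nucleus. MAP3K7 is known as one of the genes whose acceptor choice is altered in SF3B1-mutant cells.

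Unique junction reads numbered 4304213 and 5322414 in the SF3B1 K700E libraries, against 3582592 and 3687513 in the wild-type libraries. The labels call the cells epithelial, whereas K562 is an erythroleukemia line. All 12 erythroid markers had reads, with summed levels of 1413 and 2120 CPM in SF3B1 K700E and 1594 and 2061 CPM in wild type (CPM, junction reads scaled by library size). Of 8 epithelial markers 6 had reads, summing to 348 and 443 CPM in SF3B1 K700E and 483 and 371 CPM in wild type, with CDH1 and KRT5 at 0. Of 6 myeloid markers 3 had reads, summing to 75.7 and 131 CPM in SF3B1 K700E and 163 and 133 CPM in wild type, with MPO, ELANE and CD14 at 0. Of 6 lymphoid markers 3 had reads, and their sum was lower in SF3B1 K700E, at 2.02 and 4.99 CPM, than in wild type, at 14.4 and 10.8 CPM. In bulk RNA, fewer cells of a type and less RNA per cell cannot be told apart, and the part of these marker differences in the results was not tested. SF3B1 itself had 845 and 702 CPM in SF3B1 K700E and 897 and 1016 CPM in wild type, a log2 change of -0.31 ± 0.22 (SE) that missed the threshold (edgeR adjusted p 0.747). The files carry no base calls, and the substitution was not checked from them.

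The member junction with the lowest p in acceptor use lay inside MAP3K7 (ENSG00000135341.17, GRCh38 chromosome 6, 90513573 to 90587045, minus strand), at the end of its intron 4. In SF3B1 K700E most reads leaving exon 4 ended at an acceptor outside the annotation, 20 nt upstream of the start of exon 5, whereas in wild type nearly all ended at the annotated acceptor. The intron with its annotated acceptor spans 90560215 to 90561621, and with the upstream acceptor it spans 90560235 to 90561621. Both flanking exons are coding. Exon 4 has 46 nt and exon 5 has 139 nt, and the 20 nt between the acceptors leave a remainder of 2 when divided by 3. The sequences below show the annotated join, with exon 4 in lower case and the first 40 bases of exon 5 in capitals, 5′ to 3′ on the transcript strand, from GENCODE release 29 (GRCh38). In reads that use the upstream acceptor, 20 intronic bases stand between the lower-case and the capital part, and those bases were not read here.

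MAP3K7 exon 4 and start of exon 5: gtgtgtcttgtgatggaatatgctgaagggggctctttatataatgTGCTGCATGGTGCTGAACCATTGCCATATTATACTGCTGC

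The upstream acceptor had 28 and 19 unique reads in the SF3B1 K700E libraries, against 0 and 2 reads in the wild-type libraries. The annotated acceptor had 20 and 11 reads in SF3B1 K700E, against 17 and 22 reads in wild type. As a share of the reads leaving exon 4 (percent spliced in, PSI), the upstream acceptor took 58.3% and 63.3% in SF3B1 K700E, against 0% and 8.33% in wild type. The SF3B1 K700E libraries both lay far above the wild-type ones, with no overlap of the 95% Wilson intervals, which ran from 44.3% to 71.2% and from 45.5% to 78.1% in SF3B1 K700E and reached up to 18.4% and 25.8% in wild type. By the simpler limit of 3 counts for a count of 0, the 0 of 17 reads in wild-type replicate 1 allow a share of up to 17.6%, close to the Wilson bound of 18.4%.

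Means were 60.8% ± 3.54 in SF3B1 K700E and 4.17% ± 5.89 in wild type (SD, n = 2 each). Pooled over the libraries of a genotype, the upstream acceptor took 47 of 78 reads (60.3%, interval 49.2% to 70.4%) in SF3B1 K700E and 2 of 41 reads (4.88%, interval 1.35% to 16.1%) in wild type. The ratio of those shares was 12.4, with a counting interval of 3.16 to 48.3. Intervals and limits of this kind cover counting error only and leave out variation between libraries. The reads carry no molecular identifiers, so duplicate reads could make even the counting error look too small.

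In the fit over all junctions that share a donor with another, each junction was set against all junctions of its donor, itself included. The upstream acceptor had a log2 change of 2.42 on that scale, with a standard error of 0.60. Its unadjusted p was 0.00038, and it missed the threshold of 0.05 after Benjamini-Hochberg adjustment over 23366 junctions (edgeR adjusted p 0.174). The annotated acceptor had a log2 change of -0.87 ± 0.36 (SE), also not called (edgeR adjusted p 1.00). In that fit 0.137% of junctions were called, 31 with higher use in SF3B1 K700E (0.133%) and 1 with lower use (0.00428%). Over 11 alternative fits the adjusted p of the upstream acceptor ranged from 0.0818 to 0.983 and the log2 change from 1.93 to 4.75. It was called in none of them. The value of 4.75 came from limma voom, which sets a junction against the others of its donor and so uses another scale. On the edgeR scale the highest log2 change was 4.64, without wild-type replicate 2.

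**Figure D1:**
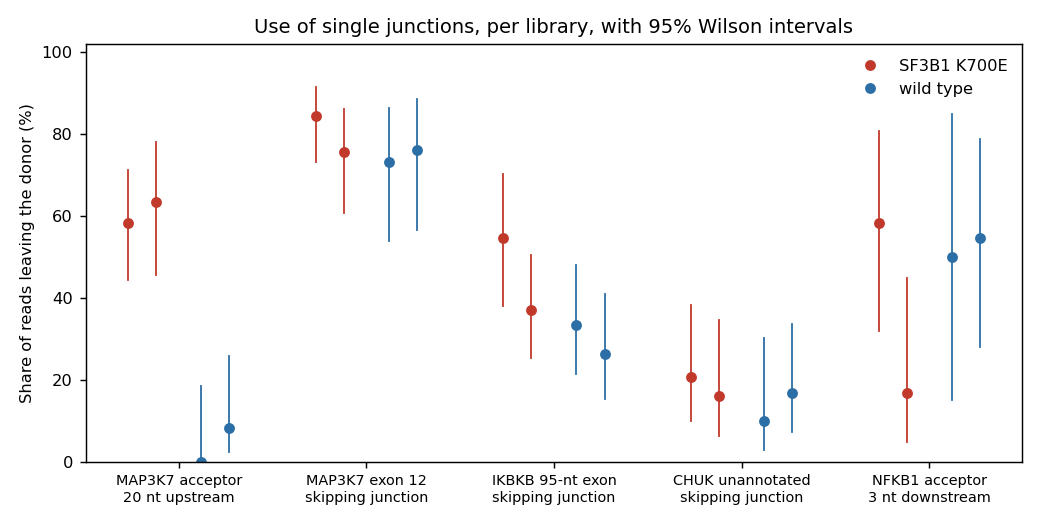
Share of the reads leaving a donor that took the named junction, in percent, for 5 junctions of MAP3K7, IKBKB, CHUK and NFKB1. Each point is a library with its 95% Wilson interval, SF3B1 K700E left of wild type, and at the MAP3K7 acceptor the SF3B1 K700E libraries stand at 58.3% and 63.3% and the wild-type libraries at 0% and 8.33%.

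The reads at the annotated acceptor of intron 4 were also few beside those of its neighbours. Relative to the mean of introns 3 and 5 in the same library, the annotated acceptor had a ratio of 0.360 and 0.253 in SF3B1 K700E, against 1.03 and 0.733 in wild type. With both acceptors added together the ratio was 0.865 and 0.690 in SF3B1 K700E and 1.03 and 0.800 in wild type. The groups thus did not overlap for the annotated acceptor and overlapped for the sum. This ratio was chosen after the data were seen and has no test.

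Level by level along MAP3K7, intron 4 stood apart from the rest of the gene. In 14 of the 15 introns of the annotated transcript that lacks exon 12, mean CPM was higher in SF3B1 K700E, and the annotated intron 4 was the exception. Intron 3 had 12.9 and 8.94 CPM in SF3B1 K700E and 3.67 and 7.52 CPM in wild type. Intron 4 with its annotated acceptor had 5.05 and 2.29 CPM in SF3B1 K700E and 5.20 and 6.61 CPM in wild type. Intron 5 had 15.1 and 9.15 CPM in SF3B1 K700E and 6.42 and 10.5 CPM in wild type. Both SF3B1 K700E libraries lay above both wild-type libraries in 4 introns and below them in 1, intron 4. Of all 119371 introns with at least 10 reads, 19.0% were above in this way and 17.1% below. The share of them with a higher mean in SF3B1 K700E was not counted.

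**Figure D2:**
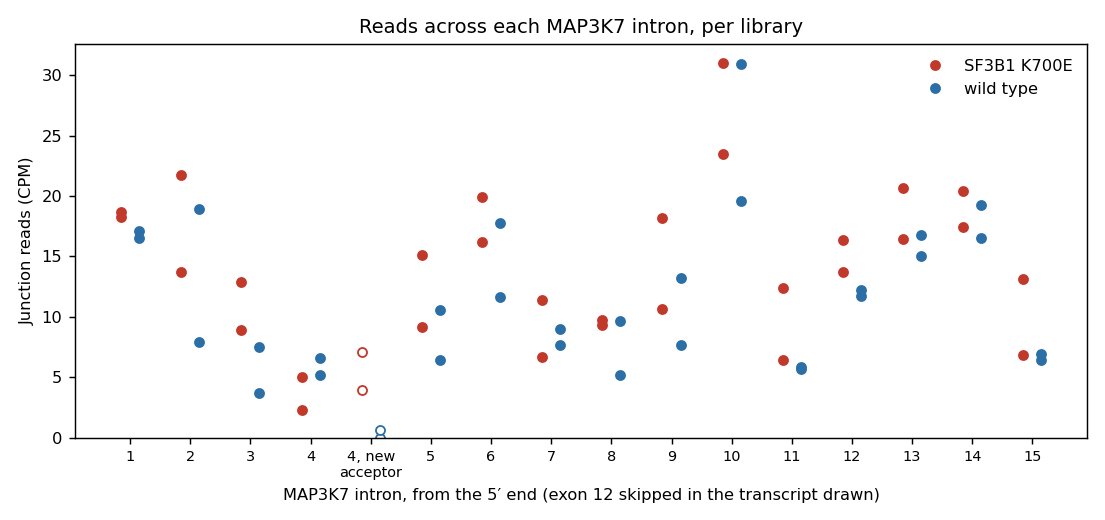
Unique reads across each intron of MAP3K7 in CPM, by intron number from the 5′ end, with SF3B1 K700E left of wild type and 1 point per library. Open points show the acceptor 20 nt upstream in intron 4, present with 28 and 19 reads in SF3B1 K700E and 0 and 2 in wild type, while the annotated intron 4 is low in SF3B1 K700E beside its neighbours.

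Unannotated acceptors 10 to 30 nt upstream of the most used one are the kind of site known to be taken in SF3B1-mutant cells. There were 232 such sites among the junctions tested over the whole series, and the median difference in PSI between SF3B1 K700E and wild type was 6.59 percentage points. A site entered with at least 10 reads over the 4 libraries together, so reads of SF3B1 K700E alone could admit it. With the deeper SF3B1 K700E libraries that rule can raise the median, which is therefore no neutral background. The MAP3K7 acceptor, at 56.7 points, ranked 6 among the 232 sites. Of the 166 with at least 20 reads at their donor in every library, the 5 nearest to MAP3K7 in PSI over the 4 libraries are given as a description. The nearest lay in ADGRV1, an adhesion G protein-coupled receptor gene, 10 nt upstream, with 63.3% and 51.2% in SF3B1 K700E and 1.72% and 3.42% in wild type. A second ADGRV1 acceptor, 21 nt upstream, had 57.6% and 49.6% in SF3B1 K700E and 4.85% and 3.10% in wild type. The other 3 were in DIP2A (17 nt), RDX (14 nt), which links actin to the membrane, and ITFG1 (13 nt). Their distances were 29.5, 31.4 and 34.4 percentage points, against 14.1 and 15.5 for the ADGRV1 sites. Of these 5, 4 passed the test of acceptor use, with ITFG1 the exception (edgeR adjusted p 0.516). The 5 were picked from the same reads, for depth and for a difference in PSI like that of MAP3K7. Their passing is therefore no separate result. The MAP3K7 donor had 17 to 48 reads per library and itself fell short of 20 in wild-type replicate 1.

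MAP3K7 also has an annotated optional exon, exon 12 of 81 nt (chromosome 6, 90544552 to 90544632), in the coding sequence. The sequences are printed because they show what inclusion adds. Capitals mark exon 12, and the lower-case ends are 15 bases of exons 11 and 13 (GENCODE release 29, GRCh38).

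MAP3K7 with exon 12: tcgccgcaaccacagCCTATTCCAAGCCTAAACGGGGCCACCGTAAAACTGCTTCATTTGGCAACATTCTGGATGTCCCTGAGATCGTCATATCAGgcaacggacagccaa
MAP3K7 without exon 12: tcgccgcaaccacaggcaacggacagccaa

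Exon 12 was included in 14.0% and 20.5% of the reads in SF3B1 K700E, against 24.0% and 25.5% in wild type, counted as the mean of its 2 inclusion junctions over that mean plus the skipping reads. Skipping reads were 49 and 31 in SF3B1 K700E and 19 and 19 in wild type, and the inclusion values of the libraries did not overlap. The means were 17.3% ± 4.58 in SF3B1 K700E and 24.7% ± 1.05 in wild type (SD, n = 2), with an exact permutation p of 0.333, 2-sided, the smallest that 6 assignments of 4 libraries allow. Neither junction of exon 12 was called in acceptor or donor use. Of the reads leaving its donor, the skipping junction took 84.5% and 75.6% in SF3B1 K700E and 73.1% and 76.0% in wild type, which overlapped. Of the reads reaching its acceptor it took 87.5% and 83.8% in SF3B1 K700E and 79.2% and 73.1% in wild type, which did not overlap. A 116-nt exon near the 3′ end (90518447 to 90518562) was included in 95.7% and 93.6% of the reads in SF3B1 K700E and in 97.7% and 100% in wild type.

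Further junctions outside the annotation in MAP3K7 were rare. A 59-nt segment within intron 8 (90550727 to 90550785) was entered by 2 and 6 reads in SF3B1 K700E and 2 and 3 in wild type, and left by 4 and 6 reads in SF3B1 K700E and 0 and 5 in wild type. An acceptor 4 nt downstream of that of intron 6 took 5.95% and 3.70% in SF3B1 K700E and 5.00% and 1.67% in wild type. The values of both overlapped between genotypes.

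Spliced reads of the whole gene gave no difference that passed for any of the 10 genes. Of 10827 genes tested, 0.933% were called, 36 higher and 65 lower in SF3B1 K700E, and 0 of the 10 members were among them. None of the 10 had an unadjusted p under 0.05 with edgeR, and DESeq2 also called none. Their median log2 change was 0.02, beside 0.00 over all genes tested.

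MAP3K7 had 251 and 184 CPM in SF3B1 K700E, against 156 and 201 CPM in wild type. The genotypes overlapped, with a log2 change of 0.29 ± 0.25 (SE; edgeR adjusted p 0.811). TRAF6, which builds the ubiquitin chains upstream of TAK1 (chromosome 11, 36487027 to 36510272, minus strand), had 48.4 and 33.9 CPM in SF3B1 K700E and 39.1 and 27.4 CPM in wild type, also overlapping (edgeR adjusted p 0.855).

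Among the TAK1 partners, TAB1, which binds and activates the kinase (chromosome 22, 39399741 to 39437060, plus strand), had 54.0 and 46.6 CPM in SF3B1 K700E and 48.0 and 30.1 CPM in wild type. TAB2, a reader of ubiquitin chains (chromosome 6, 149218641 to 149411613, plus strand), had 42.4 and 30.8 CPM in SF3B1 K700E and 40.0 and 42.1 CPM in wild type. TAB3, its paralog (chromosome X, 30827442 to 30975084, minus strand), had 65.8 and 70.7 CPM in SF3B1 K700E and 66.3 and 80.9 CPM in wild type. The genotypes overlapped for all 3, and the edgeR adjusted p was 0.788 for TAB1, 0.932 for TAB2 and 0.957 for TAB3.

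CHUK, the IKKα subunit (chromosome 10, 100188298 to 100229619, minus strand), had 98.6 and 91.5 CPM in SF3B1 K700E and 63.0 and 83.6 CPM in wild type. It was the only one of the 10 whose genotypes did not overlap, and 19.4% of all genes tested lay above in the same way and 20.1% below. The log2 change was 0.38 ± 0.25 (SE; edgeR adjusted p 0.717). Of its 19 introns with at least 10 reads, 16 had a higher mean in SF3B1 K700E, and 10 had both SF3B1 K700E libraries above both wild-type ones. Over the introns of all genes, 19.0% lay above in this way and 17.1% below, and the share with a higher mean was not counted. Introns of 1 gene come from the same transcripts and are not independent.

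IKBKB, the IKKβ subunit (chromosome 8, 42271302 to 42332653, plus strand), had 275 and 308 CPM in SF3B1 K700E and 353 and 262 CPM in wild type (edgeR adjusted p 0.973). NFKB1, which encodes p105 and p50 (chromosome 4, 102501329 to 102617302, plus strand), had 34.8 and 36.4 CPM in SF3B1 K700E and 32.1 and 43.3 CPM in wild type (edgeR adjusted p 0.978). RELA, the transactivating subunit (chromosome 11, 65653596 to 65663094, minus strand), had 53.0 and 63.8 CPM in SF3B1 K700E and 64.5 and 60.1 CPM in wild type (edgeR adjusted p 0.970). The genotypes overlapped for these 3 genes.

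**Figure D3:**
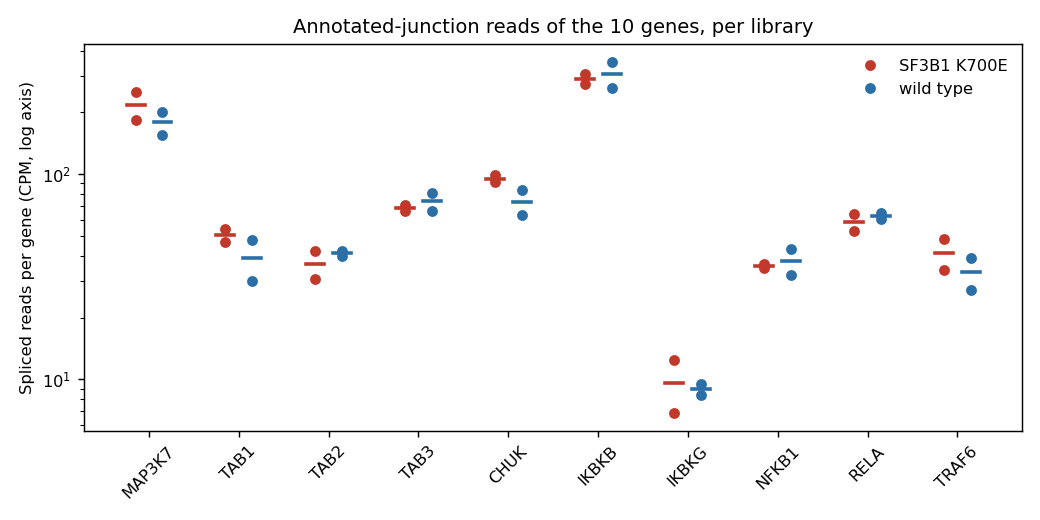
Reads over annotated junctions of the 10 genes in CPM on a log axis, 1 point per library and a bar at the mean of each genotype, SF3B1 K700E left of wild type. CHUK is the only gene whose points do not overlap, with 98.6 and 91.5 CPM in SF3B1 K700E and 63.0 and 83.6 CPM in wild type.

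Because genes with more introns collect more junction reads, levels were compared between genes per intron. The divisor was the number of a gene's annotated introns with at least 10 reads over the 4 libraries. It was 17 of 18 annotated introns for MAP3K7, 26 of 38 for IKBKB and 2 of 23 for IKBKG. On that scale MAP3K7 had 12.8 ± 2.78 CPM per intron in SF3B1 K700E and 10.5 ± 1.88 in wild type (SD, n = 2), and IKBKB had 11.2 ± 0.89 in SF3B1 K700E and 11.8 ± 2.47 in wild type. MAP3K7 was highest in SF3B1 K700E and IKBKB in wild type, and in neither genotype did the 2 differ by more than the larger SD. In SF3B1 K700E the levels then ran from TRAF6 at 6.86 through TAB3, RELA, TAB2, TAB1 and CHUK to IKBKG at 4.82, and neighbours differed by less than the larger of their SDs. In wild type they ran from TAB3 at 6.69 through RELA, TAB2, TRAF6, IKBKG and TAB1 to CHUK at 3.86, and the same held except for RELA at 6.23 ± 0.31 and TAB2 at 5.87 ± 0.21. NFKB1 was lowest, with 1.62 ± 0.051 CPM per intron in SF3B1 K700E and 1.71 ± 0.36 in wild type. Dividing by all annotated introns would lower IKBKB and IKBKG more than MAP3K7, so the order of the genes depends on the divisor.

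IKBKG (chromosome X, 154541199 to 154565046, plus strand) could be measured only at its 5′ end. NEMO has a near-identical pseudogene, IKBKGP1 (chromosome X, 154639978 to 154648275), and reads that fit both are counted as multiply mapped. Introns 1 and 2 had 25 and 57 unique reads in SF3B1 K700E and 26 and 27 in wild type, with 0 multiply mapped reads. Introns 3 to 9 had 0 and 2 unique reads in SF3B1 K700E and 1 and 0 in wild type, against 46 and 114 multiply mapped reads in SF3B1 K700E and 96 and 90 in wild type. The pseudogene's own introns had 49 and 119 multiply mapped reads in SF3B1 K700E and 96 and 91 in wild type, and 0 unique reads. Reads of the gene and the copy cannot be told apart there.

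From unique reads IKBKG had 6.81 and 12.5 CPM in SF3B1 K700E and 9.47 and 8.42 CPM in wild type, with a log2 change of 0.12 ± 0.43 (SE; edgeR adjusted p 0.981). With multiply mapped reads added, the log2 change was -0.44 (edgeR adjusted p 0.770), the opposite sign. IKBKG values are therefore uncertain.

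**Figure D4:**
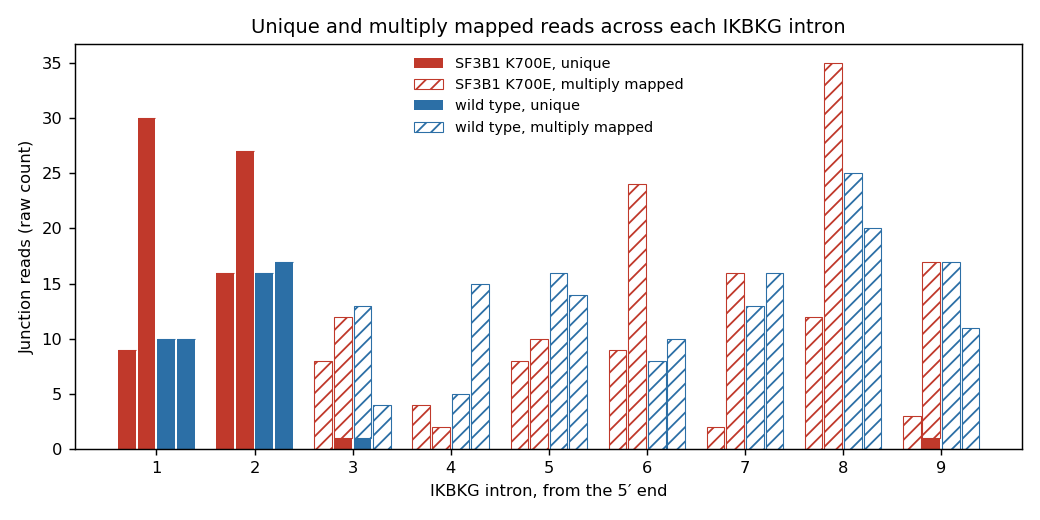
Raw junction reads across the 9 introns of IKBKG from the 5′ end, with SF3B1 K700E bars left of wild-type bars in each intron, filled for unique and hatched for multiply mapped reads. Introns 1 and 2 hold unique reads only, and introns 3 to 9 hold nearly only reads that also map to the pseudogene.

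No junction of the 10 genes was called for its choice of splice sites, the MAP3K7 acceptors included. In acceptor use 24 junctions of 5 members were tested and 0 were called. Unadjusted p was under 0.05 for 2, both at MAP3K7 intron 4, where 3.17% of all junctions tested were under that level, and the lowest p of the others was 0.171. For 8 of the 24 (33.3%) PSI did not overlap between genotypes, 4 above and 4 below, while over all junctions 19.0% were above and 18.6% below. In donor use 16 junctions of 5 members were tested, 0 were called and 0 had an unadjusted p under 0.05, beside 0.0087% called over 22976 junctions (0.00435% higher and 0.00435% lower) and 2.18% under that level. Donor PSI did not overlap for 4 of the 16 (25.0%), 2 above and 2 below, while over all junctions 18.5% were above and 18.4% below. Each of these non-overlapping junctions, in acceptor and donor use, belonged to a pair that shares a site. The shares of a pair mirror each other, so the counts above and below were equal by construction. Junctions of a pair are not independent, and the 2 with an unadjusted p under 0.05 in acceptor use are such a pair.

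All the non-overlapping junctions lay in IKBKB, with 6 in acceptor use and 2 in donor use, and in MAP3K7, with 2 in each. The optional 95-nt exon of IKBKB (42288634 to 42288728) was included in 40.0% and 54.0% of the reads in SF3B1 K700E, against 61.0% and 69.4% in wild type. The means were 47.0% ± 9.92 in SF3B1 K700E and 65.2% ± 5.94 in wild type, with an exact permutation p of 0.333, 2-sided. The junction that skips it had 18 and 20 reads in SF3B1 K700E and 15 and 11 in wild type, and a log2 change of 0.39 ± 0.35 (SE; edgeR adjusted p 1.00). An annotated acceptor of IKBKB lay 262 nt upstream of the most used one (42319647 to 42320472). It took 14.8% and 8.62% in SF3B1 K700E and 2.56% and 4.55% in wild type. Its reads numbered 4 and 5 in SF3B1 K700E and 1 and 1 in wild type. An acceptor 53 nt downstream in another intron of IKBKB took 13.1% and 10.5% in SF3B1 K700E and 22% and 16.9% in wild type. None passed the test. A junction outside the annotation that skips 1 exon of IKBKB (42306433 to 42314321) took 8.16% and 6.15% in SF3B1 K700E and 4.44% and 7.69% in wild type, overlapping.

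CHUK had 1 unannotated skipping junction with at least 10 reads (100218826 to 100219269), with 6 and 4 reads in SF3B1 K700E and 2 and 5 in wild type. Its share of the donor's reads was 20.7% and 16% in SF3B1 K700E and 10.0% and 16.7% in wild type, which overlapped. NFKB1 has a pair of annotated acceptors 3 nt apart, so that a CAG is kept or left out of the coding sequence. The joins are shown with the CAG in capitals, from GENCODE release 29 (GRCh38).

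NFKB1 with CAG: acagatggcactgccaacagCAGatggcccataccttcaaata
NFKB1 without CAG: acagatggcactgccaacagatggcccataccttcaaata

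The acceptor that keeps the CAG had 5 and 10 reads in SF3B1 K700E and 2 and 5 in wild type. The one that leaves it out had 7 and 2 reads in SF3B1 K700E and 2 and 6 in wild type. The kept share was 41.7% and 83.3% in SF3B1 K700E and 50.0% and 45.5% in wild type, overlapping, on 4 to 12 reads a library. A 139-nt exon of TAB3 was included in 15.8% and 16.7% of the reads in SF3B1 K700E and in 14.3% and 33.3% in wild type. Of the 20 pairs of an annotated exon and its skipping junction in 7 members, 4 lay lower in SF3B1 K700E, 2 higher and 14 overlapped. Over all 22752 such pairs with at least 20 reads, 10.9% lay lower and 8.44% higher. Pairs of 1 gene share reads and are not independent. RELA contributed 9 of these pairs, of which 8 had no skipping read.

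Over the whole of each gene, the share of reads on unannotated junctions was higher in MAP3K7 in SF3B1 K700E, at 5.42% and 6.14%, than in wild type, at 3.04% and 2.76%. The means were 5.78% ± 0.51 in SF3B1 K700E and 2.90% ± 0.20 in wild type (SD, n = 2), with an exact permutation p of 0.333, 2-sided. Without the upstream acceptor of intron 4 the shares were 2.83% and 4.22% in SF3B1 K700E and 3.04% and 2.48% in wild type, which overlapped. That removal was chosen after the data were seen.

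IKBKG had 12.9% and 9.09% in SF3B1 K700E, from 4 of 31 and 6 of 66 reads, against 0% and 0% in wild type, where 0 of 31 and 0 of 28 reads allow up to 9.68% and 10.7%. These totals leave out the multiply mapped reads of its introns 3 to 9. The IKBKG share is therefore not a share of the whole gene and not directly comparable with those of the other members. TAB1 had 1.83% and 2.61% in SF3B1 K700E and 1.26% and 0% in wild type, where 0 of 100 reads allow up to 3%. TAB3 had 3.69% and 5.56% in SF3B1 K700E and 3.56% and 2.54% in wild type. MAP3K7, TAB1, TAB3 and IKBKG were the members whose genotypes did not overlap, all with SF3B1 K700E above. Of 10776 genes with reads in every library, 24.8% lay above in this way and 9.25% below, so most of the genes that did not overlap in the series had the same direction. TAB2, CHUK, IKBKB, NFKB1, RELA and TRAF6 overlapped.

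Pooled over the 10 genes, 146 unannotated junctions took 3.73% and 3.65% of the reads in SF3B1 K700E and 2.73% and 2.51% in wild type. The 9 genes other than MAP3K7 had 3.10% and 2.97% in SF3B1 K700E and 2.66% and 2.44% in wild type. Over all canonical junctions of the series the shares were 4.84% and 4.51% in SF3B1 K700E and 4.37% and 4.33% in wild type. That count also takes in junctions outside genes or in several genes, so its level is not directly comparable with that of the 10 genes. Of the 146, 59 joined an annotated donor to an unannotated acceptor, 40 used an unannotated donor, 30 joined annotated sites in an unannotated pair and 17 had neither site annotated. Only 6 of them reached 10 reads over the 4 libraries.

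**Figure D5:**
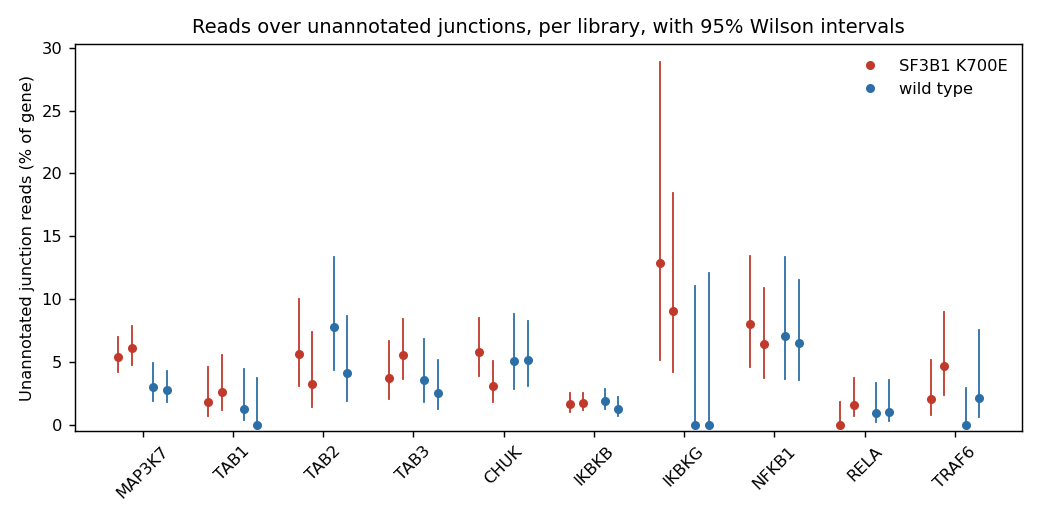
Share of each gene's junction reads that lie on unannotated junctions, in percent, 1 point per library with its 95% Wilson interval, SF3B1 K700E left of wild type. MAP3K7 stands at 5.42% and 6.14% in SF3B1 K700E and 3.04% and 2.76% in wild type, and the wide intervals of IKBKG reflect 28 to 66 reads.

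Around the 10 genes, a list of 90 genes of the same pathway gave no call. Of the 90, 81 had reads and 72 could be tested, and edgeR called 0 higher and 0 lower, and at an unadjusted p under 0.05 1 gene was higher and 4 were lower, beside 3.67% higher and 6.44% lower over all genes tested. The median log2 change was 0.00, as over all genes tested. Receptors and adaptors (19 tested) had a median log2 change of -0.19, inhibitors, deubiquitinases and the LUBAC ligase (17 tested) 0.04, other subunits and the noncanonical arm (10 tested) 0.07, kinases below or beside TAK1 (13 tested) -0.02, and transcription targets (13 tested) -0.07.

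The 5 genes under the unadjusted level, a share of the list no larger than that of all genes, were named after their values were seen, and none passed the test. PTGS2, the cyclooxygenase-2 gene and an NF-κB target, had 8.58 and 15 CPM in SF3B1 K700E, against 0.61 and 4.51 CPM in wild type (log2 change 2.19 ± 0.67 SE, edgeR adjusted p 0.225). MYD88, the adaptor of Toll-like and interleukin-1 receptors, had 9.08 and 10.6 CPM in SF3B1 K700E and 22 and 16.2 CPM in wild type (edgeR adjusted p 0.328). IRAK2, a kinase that acts with MYD88, had 5.3 and 7.07 CPM in SF3B1 K700E and 13.1 and 11.1 CPM in wild type (edgeR adjusted p 0.433). RBCK1, a LUBAC subunit, and OTULIN, the enzyme that removes the linear ubiquitin chains LUBAC makes, were the other 2. RBCK1 had 85.8 and 146 CPM in SF3B1 K700E and 225 and 150 CPM in wild type (edgeR adjusted p 0.482). OTULIN had 36.6 and 38.5 CPM in SF3B1 K700E and 60.8 and 57.7 CPM in wild type (edgeR adjusted p 0.376).

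Among further transcription targets tested, CXCL8 overlapped, with 7.06 and 12.1 CPM in SF3B1 K700E and 1.83 and 9.92 CPM in wild type. So did CXCL3, BCL2L1, SOD2, GADD45B, CCND1, IRF1, MYC and CFLAR. CXCL2 lay above, with 7.57 and 11.6 CPM in SF3B1 K700E and 6.72 and 5.41 CPM in wild type. IL6 lay below, with 7.57 and 6.86 CPM in SF3B1 K700E and 8.86 and 11.4 CPM in wild type. ICAM1 also lay below, with 31.5 and 34.3 CPM in SF3B1 K700E and 34.8 and 39.1 CPM in wild type. Over all genes tested, 19.4% lay above in this way and 20.1% below. TNF, CCL2, CCL3, CCL4, VCAM1 and BCL2A1 had no spliced read in any library.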

How the data were processed

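Per the file headers of the run logs, STAR 2.7.10a was run by the authors once per library against GRCh38.p12, with an index of 353424 junctions from GENCODE release 27 and 1887 more from release 22. The deposited junction files hold raw counts of uniquely and multiply mapped reads per junction, without normalization. Unspliced RNA was not analysed here. Junctions were assigned to genes with GENCODE release 29, and reads over introns of several genes (3.98%) were left out. Unique reads on annotated junctions were added up for each gene and tested with the quasi-likelihood test of edgeR 4.0.16 in R 4.3.3 (TMM, filterByExpr, Benjamini-Hochberg adjustment at 0.05). Acceptor and donor use were tested with edgeR's diffSpliceDGE over junctions with a canonical motif and at least 10 reads. Each log2 change is SF3B1 K700E over wild type, and its standard error is its size divided by the square root of the F statistic. Single values used an exact permutation test. Alternatives used DESeq2 1.42.0, limma 3.58.1, other normalizations, filters and minimum reads, multiply mapped reads, a replicate block and each library left out. The named genes are the members, their unannotated junctions with at least 10 reads, their optional exons with at least 20 reads and SF3B1. Genes of the pathway list were also named, after their values were seen. The members and lists were chosen with earlier results of these data known.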

Additional observations from a re-analysis of the deposited data

How the results depend on the processing

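No member gene and no member junction was called under any alternative run. Over all genes, DESeq2 called 63 higher and 154 lower, against 36 and 65 with edgeR, and leaving out 1 library gave 85 to 121 higher and 168 to 231 lower. The pathway list had 0 to 2 calls with 1 library left out. PTGS2 passed without wild-type replicate 2 or without SF3B1 K700E replicate 1, and TRADD and RBCK1 passed without SF3B1 K700E replicate 2. In acceptor use limma voom called 9 higher and 6 lower. A minimum of 5 reads gave 35 higher and 2 lower, a minimum of 20 reads gave 42 higher and 2 lower, and leaving out 1 library gave 5 to 11 higher and 0 to 1 lower. Donor use gave 0 higher and 0 lower with multiply mapped reads, and 0 with 1 library left out. The cause of these moves was not tested.

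The log2 change of IKBKG turned to -0.44 with multiply mapped reads. With 1 library left out it ranged from -0.38 to 0.48, that of IKBKB from -0.27 to 0.15, TAB3 from -0.24 to 0.048, NFKB1 from -0.28 to 0.16, RELA from -0.22 to 0.035 and TAB2 from -0.42 to 0.058, so these 6 have no settled direction. MAP3K7 ranged from 0.046 to 0.50, TRAF6 from 0.029 to 0.59, TAB1 from 0.073 to 0.74 and CHUK from 0.19 to 0.60, with no change of sign. Counting only junctions with 10 reads, the unannotated share of the 10 genes was 0.678 percentage points higher in SF3B1 K700E.

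The labels give both genotypes the replicate numbers 1 and 2 without saying that a number marks a shared culture, and same-numbered deviations correlated at -0.21 across genes. With the replicate block, gene totals gave 51 higher and 85 lower calls, acceptor use 19 higher and 0 lower, and donor use 0 and 0. The MAP3K7 upstream acceptor had an edgeR adjusted p of 0.363 with the block, and 0.288 to 0.871 with 1 library left out.

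With 17 to 48 reads per library at the MAP3K7 donor and 2 libraries per genotype, the shares are known only within wide intervals.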
